A study of Mus musculus with 2 samples.

Results

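The cells described here are the 1032 cells of the wounded anorectal library that carry the deposited name Suprabasal. They were chosen by that name alone and make up 24.89% of the 4147 named wounded cells, and 1032 of the 5086 named cells of both libraries. The anorectal junction was taken from C57/BL6J mice of the genotype K17CreERT2;R26RGFP, in which the Krt17 promoter drives a Cre that tamoxifen switches on, so that cells with Krt17 transcription become fluorescent. All mice received tamoxifen (2 injections of 2 mg), and those of the wounded group, 2 to 4 months old, were taken 1 week after a wound made with EDTA, while the normal group had no wound. Cells of at least 5 mice were pooled in each group, sorted by FACS with a gate on Epcam, and sequenced as 1 droplet library per group. The contribution of each mouse cannot be told apart within a pool. Since each group has 1 library and cells are not replicates, differences below lack a check by replicates and carry no p-value, and a difference between wounded and normal cells is also one between libraries.

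The transition zone is the narrow junction where the stratified epithelium of the anal canal meets the glandular epithelium of the rectum. In a stratified epithelium, basal cells sit on the basement membrane, hold to it by integrins and hemidesmosomes, make the keratins Krt5, Krt14 and Krt15, and divide. Cells that leave this layer become suprabasal, strengthen their desmosomes and turn on proteins of the cornified envelope, while proteases such as the kallikreins and their inhibitors control how dead cells are shed. Krt6a and Krt17 mark transition zone, duct and wounded epithelium, nectin-4 is an adherens junction protein, and Cst6 encodes cystatin E/M, an inhibitor of cysteine proteases in the outer layers.

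The 1032 cells held 11574197 UMIs, each a counted RNA molecule, with a median of 10594 UMIs and 2607.5 genes per cell and a median mitochondrial share of 8.39%. The normal cells of the same name were 187, with 2282455 UMIs, a median of 11543 UMIs per cell and a mitochondrial share of 5.005%. The other wounded names were Regeneration (991 cells), Wound_Stress (838), Basal (573), Rectum (397) and Hybrid (316), and the other normal names Anal Canal (432), Basal (257) and Rectum (63). No named cell barcode was shared between the libraries (0), and 1 was shared among all barcodes. A level below is the number of a gene's UMIs in all cells of a name, scaled to counts per 1000000 UMIs of that name (CPM). Values in brackets after a level, a log2 ratio or a share of cells are its 95% interval, computed as an exact Poisson, an exact binomial and a Clopper-Pearson interval in turn, and cover counting error only. In such sums, fewer cells that use a gene and less of its RNA per cell cannot be told apart.

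The 4 genes that mark these cells were each higher in them than in any other wounded name. Krt17 (chromosome 11, 100256217 to 100261029 of GRCm38, minus strand) stood at 7100 CPM (7052 to 7149), against 1148 CPM in Hybrid, 1004 in Regeneration, 381 in Basal, 134 in Rectum and 110 in Wound_Stress cells. In the normal library it stood at 9389 CPM in Suprabasal, 2265 in Basal, 704 in Anal Canal and 36.9 in Rectum cells. Cst6 (chromosome 19, 5344705 to 5349574, minus strand) showed the widest gap, with 53230 CPM (53100 to 53370) against 4092 CPM in Hybrid, 895 in Rectum, 512 in Basal, 295 in Regeneration and 257 in Wound_Stress cells. Only the normal Suprabasal cells, at 87280 CPM, held more of it, and the other normal names lay between 199 and 1437 CPM. Krt6a (chromosome 15, 101689910 to 101694307, minus strand) reached 1034 CPM (1016 to 1053) here and 724 CPM in wounded Basal cells, with 145 CPM or less in the other wounded names, 1724 CPM in normal Anal Canal and 1338 CPM in normal Suprabasal cells. Nectin4 (chromosome 1, 171370099 to 171388598, plus strand) reached 82.0 CPM (76.9 to 87.4), against 51.2 in Hybrid and 45.65 in Basal cells and 11.7 CPM or less in the remaining wounded names, and at 131 CPM in normal Suprabasal cells. Over all other named wounded cells, the log2 ratios of Cst6, Krt17, Krt6a and Nectin4 were 6.52 (6.50 to 6.54), 3.62 (3.60 to 3.65), 2.68 (2.63 to 2.73) and 2.22 (2.07 to 2.37). These genes helped to form the name, so the ratios describe it and test nothing.

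**Figure D1:**
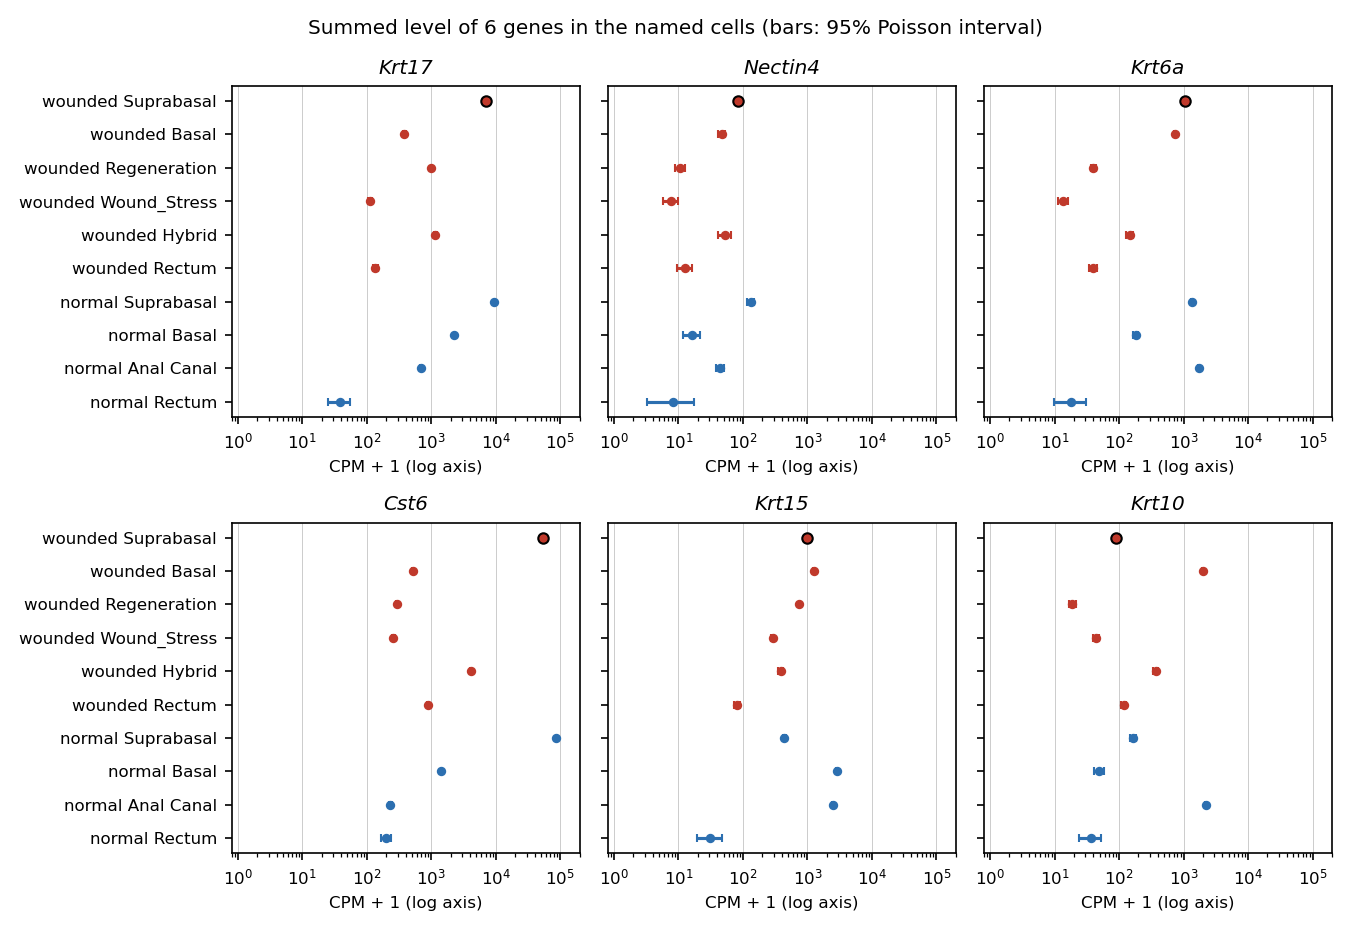
Summed level (CPM + 1, log axis) of 6 genes in the 10 named groups of cells, wounded in red and normal in blue, with 95% Poisson intervals that are often narrower than the point; the wounded Suprabasal cells are outlined. Krt17 and Cst6 were highest in the 2 Suprabasal names, whereas Krt10 stood at 88.7 CPM in wounded Suprabasal and 1987 CPM in wounded Basal cells.

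The differentiation keratins Krt10 and Krt1 were much lower in these cells than in the wounded cells named Basal. Krt10, a keratin of differentiated suprabasal cells, was at 88.7 CPM (83.4 to 94.3) in the cells named Suprabasal, 1987 in wounded Basal, 366 in Hybrid, 118 in Rectum, 42.5 in Wound_Stress and 17.8 in Regeneration cells. In the normal library it was low under the same name too, at 162 CPM in Suprabasal and 48.4 in Basal cells against 2228 CPM in Anal Canal cells. Its partner Krt1 was at 98.7 CPM (93.0 to 105) in the cells named Suprabasal and 2473 CPM in the cells named Basal, and at 448 CPM in normal Suprabasal, 17.4 in normal Basal and 2286 CPM in Anal Canal cells. Krt15, a keratin of basal cells, was at 983 CPM (965 to 1001) in the cells named Suprabasal and 1259 CPM in the cells named Basal, but at 439 CPM in normal Suprabasal and 2878 CPM in normal Basal cells. Krt14, another basal keratin, was at 5594 CPM here and 8434 CPM in the cells named Basal. Of 15 basal layer genes, 1 was at least 2-fold higher here than in the cells named Basal (8.54% of all genes) and 4 were lower (9.19%), with a median log2 ratio of -0.64. In sum over cells, the wounded cells named Suprabasal held the given markers of the transition zone and the basal keratin Krt15, and little of the keratins of the upper anal canal. Most single cells had a UMI of either Cst6 or Krt15 and not both, as described below. In the study's text a wounded cluster rich in Krt10 is assigned to the anal canal and suprabasal layer, and the transition zone to a separate cluster with Nectin4 and Krt6a. The study also uses nectin-4 and Krt6 to tell the suprabasal cells of the transition zone from its basal cells, and among the wounded names both Nectin4 and Krt6a were highest in the cells named Suprabasal. Both sets of cells are called below by their deposited names, so Basal and Suprabasal in the wounded library stand for those names and not for a layer.

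Sampled at a fixed depth of 2000 UMIs, which kept 1020 of the 1032 cells, 90.1% (88.1 to 91.9) of the cells had a UMI of Krt17 and 65.6% (62.6 to 68.5) a UMI of Cst6. In Rectum cells of the same library the shares were 11.6% and 24.9%. Whether the UMIs in Rectum cells came from free RNA, from doublets or from the Rectum cells themselves was not tested. Krt6a was found in 43.5% (40.5 to 46.6) and Nectin4 in 10.9% (9.04 to 13.0) of the cells, against 2.26% of Rectum cells for each. Before sampling, the median depths were 10594 and 9991 UMIs, and the shares in these cells were 96.1% for Krt17, 84.1% for Cst6, 57.7% for Krt6a and 40.9% for Nectin4. In normal Suprabasal cells at 2000 UMIs, Krt17 was found in 98.4% (95.3 to 99.7) and Cst6 in 95.1% (90.9 to 97.7). These shares compare 1 library with another, and by group of wounded cells (described below) that of Cst6 ran from 26.25% in group 5 and 33.0% in group 1 to 100% in group 4.

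Cst6 was also the gene that varied most between the cells. In a separate draw of 2000 UMIs per cell its variance was 281 times its mean, with a median of 2 UMIs, an upper quartile of 71 and a highest value of 956, and 338 cells had none. The next protein-coding nuclear genes were Slpi (secretory leukocyte peptidase inhibitor, 16.8), the beta-defensin gene Defb6 (16.4), Krt17 (16.0), Krtdap (a differentiation-associated protein of keratinocytes, 15.7) and Krt79 (a keratin of hair follicle ducts, 12.7). In 123 of the 1032 cells Cst6 took at least 10% of all UMIs, up to 49.3% in a single cell. The median was 0.106% in the wounded and 3.46% in the normal Suprabasal cells. Krt17 varied less, with a median of 6 UMIs, an upper quartile of 16 and a highest value of 126.

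Most cells held a UMI of either Cst6 or Krt15 and not both. Of the 1020 cells in that draw, 295 had Krt15 without Cst6, 434 had Cst6 without Krt15, 248 had both and 43 had neither. Cells with both made up 24.3%. Krt5, another basal keratin, was found with Cst6 more often, in 438 cells (42.9%). For that pair, 323 cells had Krt5 without Cst6, 244 had Cst6 without Krt5 and 15 had neither. The plot of Krt15 against Cst6 in single cells shows the 2 arms.

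**Figure D2:**
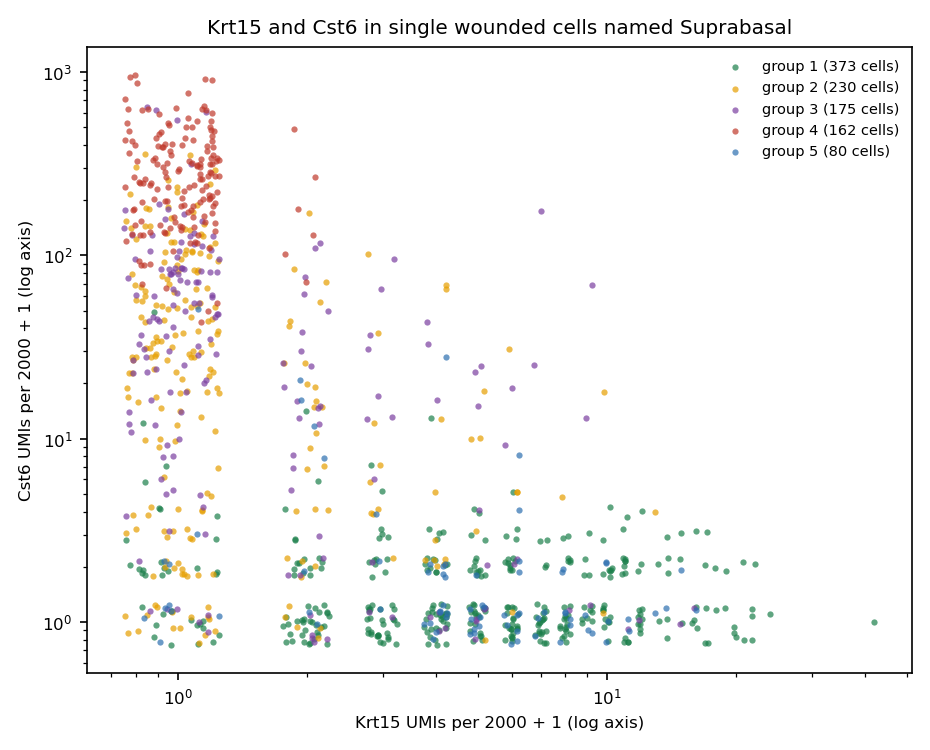
UMIs of Krt15 (x, plus 1, log axis) and Cst6 (y, plus 1, log axis) in each of the 1020 wounded Suprabasal cells sampled to 2000 UMIs, coloured by the 5 groups of cells described in the text; points are moved at random by less than 1 UMI so that they do not hide each other. Groups 1 and 5 lie along the Krt15 axis with few UMIs of Cst6, and group 4 lies at high Cst6 with almost no Krt15.

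To describe how the cells differ among themselves, they were clustered on their own, with every gene of the gene lists used below left out of the clustering. The 5 groups held 384, 230, 175, 163 and 80 cells and are given by number only. Since the same cells were clustered, the values between groups are a description. Krt15 stood at 2708 CPM in group 1, 338 in group 2, 497 in group 3, 20.1 in group 4 and 1972 in group 5. The basal keratin Krt14 did not follow it, at 4355, 7027, 6574, 5208 and 3759 CPM in groups 1 to 5. All 15 basal layer genes together summed to 10610, 8995, 8734, 5576 and 8867 CPM. Cst6 ran the other way from Krt15, at 445, 29050, 35780, 158500 and 1917 CPM in groups 1 to 5. Krt17 was at 1788, 6321, 7913, 13700 and 2603 CPM, so groups 1 and 5 also held the least of it.

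Group 1 had the lowest depth, with a median of 6583 UMIs per cell, and a mitochondrial share of 10.4%. Its leading genes over the other members were Dlk2, a relative of Delta (39.2 CPM, log2 ratio 3.98), the Notch ligand gene Jag2 (107 CPM, 2.98), Lgals9, encoding galectin-9 (60.9 CPM, 2.79), Npnt, encoding the matrix protein nephronectin (56.5 CPM, 2.64), and the calcium sensor gene Vsnl1 (37.0 CPM, 2.63). Col17a1, a collagen of hemidesmosomes, was at 265 CPM in this group and at 191 in group 5, against 55.3, 47.4 and 6.36 CPM in groups 2, 3 and 4. Group 5 was led by genes of mitosis, among them Nusap1 (276 CPM, log2 ratio 8.52), Aspm (242 CPM, 8.33) and Knl1 (264 CPM, 7.76). A UMI of the proliferation marker Mki67 was found in 76.3% (65.4 to 85.1) of its cells at 2000 UMIs, against 8.33% of all 1020 cells. Without sampling it was found in 97.5% of the cells of group 5 and in 6 of the 163 cells of group 4 (3.68%, 1.36 to 7.84), against 29.2% of Rectum cells.

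Group 4 had the most Cst6 and Krt17, the highest depth (median 17210 UMIs) and the lowest mitochondrial share (6.43%). Cst6 took a median of 13.3% of the UMIs of its cells. Its leading genes were the transporter gene Slc46a2 (42.05 CPM, log2 ratio 4.715), Cdsn, encoding corneodesmosin (50.5 CPM, 4.395), the gene Gm94 (298 CPM, 4.025), Spink5, an inhibitor of kallikreins (2234 CPM, 3.99), and Gsdma, encoding gasdermin A (281 CPM, 3.70). Spink5 was detected before sampling in 157 of its 163 cells and Gsdma in 142, but Cdsn in 19 cells, with 45.5% of its UMIs in a single cell. None of the cells of group 4 was among those with the highest doublet scores (0 cells), against 16.3% in group 5, 9.71% in group 3, 6.96% in group 2 and 2.60% in group 1.

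Groups 2 and 3 lay between groups 1 and 4 in Cst6 and Krt17. Group 2 was led by Mt4, a metallothionein of stratified epithelium (98.5 CPM, log2 ratio 4.29), Krt4 (39.3 CPM, 3.82), Krt1 (308 CPM, 3.04), Krt10 (209 CPM, 1.96) and the transcription factor gene Pou4f1 (129 CPM, 1.76). Mt4, Krt4 and Krt1 came from few cells: 17 cells for Mt4, 7 for Krt4 and 34 for Krt1, with 39.5%, 64.1% and 28.6% of the UMIs in a single cell. Krt10 was seen in 69 cells, with 32.0% of its UMIs in a single cell, and Pou4f1 in 90 cells. Group 3 was led by Car1, a carbonic anhydrase (46.5 CPM, log2 ratio 5.56, in 29 cells), Lypd8, a secreted protein of colonic epithelium (278 CPM, 3.93, in 74 cells), Sycn, encoding syncollin (70.8 CPM, 3.91, in 31 cells), and the acute phase gene Saa1 (46.5 CPM, 3.77, in 35 cells), together with the protease gene Klk14, which came from 3 cells with 99.3% of the UMIs in a single cell. Krt8, a keratin of glandular cells, was found in 32.6% (25.7 to 40.0) of the cells of group 3 at 2000 UMIs, 11.7% of group 2, 12.9% of group 1 and 92.7% of Rectum cells. Group 3 also held 7 cells with a share of rectum genes as high as that of 89.9% of the Rectum cells (at least 0.496% of UMIs), and the other groups held 0. The part of free RNA and doublets in these values was not tested.

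**Figure D3:**
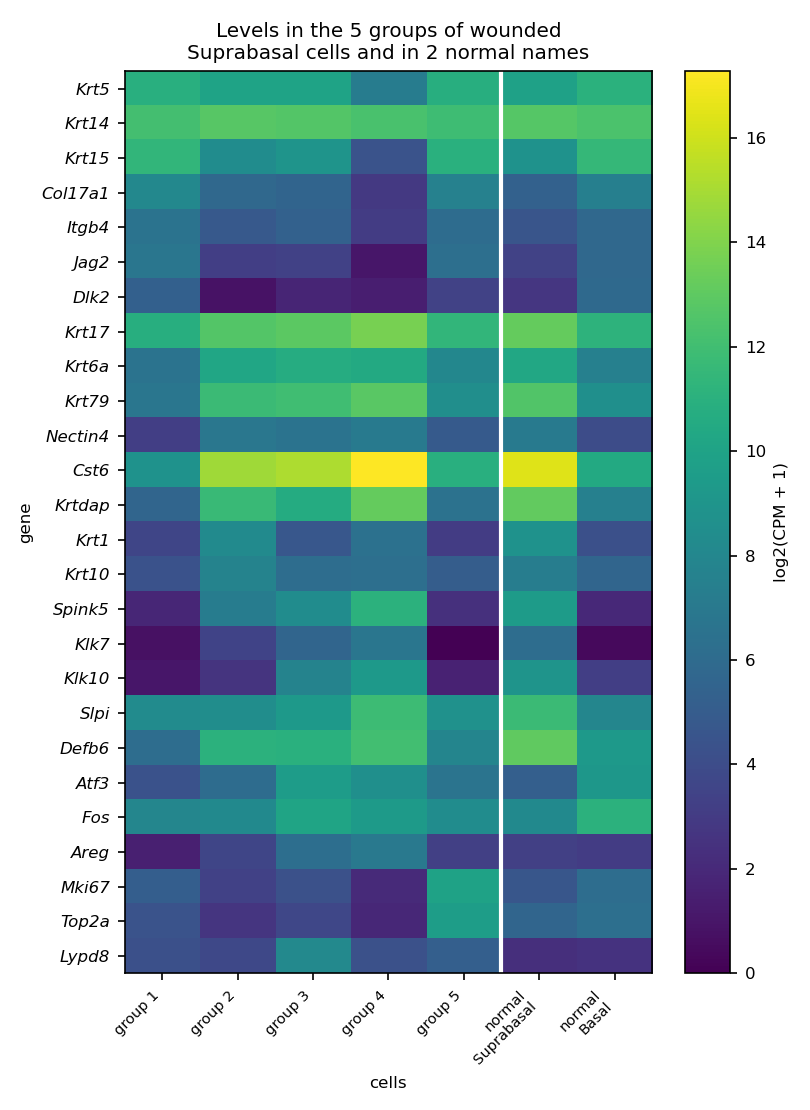
Level of 26 genes as log2(CPM + 1) (colour) in the 5 groups of wounded Suprabasal cells and, right of the white line, in normal Suprabasal and normal Basal cells. Krt15 is at 2708 and 1972 CPM in groups 1 and 5 and at 2878 CPM in normal Basal cells, while group 4 has the most Cst6 (158500 CPM) and Spink5 (2234 CPM).

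The wounded cells of this name fell between a pair of normal names. Each cell, sampled to 2000 UMIs, was assigned to the normal name whose profile correlated best with it over 7453 genes. Of 1020 cells, 521 (51.1%, 48.0 to 54.2) were nearest to normal Basal, 495 (48.5%, 45.4 to 51.6) to normal Suprabasal, 4 to Anal Canal and 0 to Rectum. Normal Suprabasal cells, scored by profiles that left them out, were nearest to their own name in 90.2% and to Basal in 8.74% (16 of 183). In group 4 every cell scored (100%) was nearest to normal Suprabasal, as were 83.5% in group 2 and 74.3% in group 3, whereas 97.3% of group 1 and 93.8% of group 5 were nearest to normal Basal. The assignments were often narrow, with a median gap of 0.0177 between the best and the next correlation and 253 cells under 0.01. Regeneration and Wound_Stress cells were nearest to normal Basal in 99.2% and 99.0%, and the wounded cells named Basal were nearest to Anal Canal in 93.8%.

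**Figure D4:**
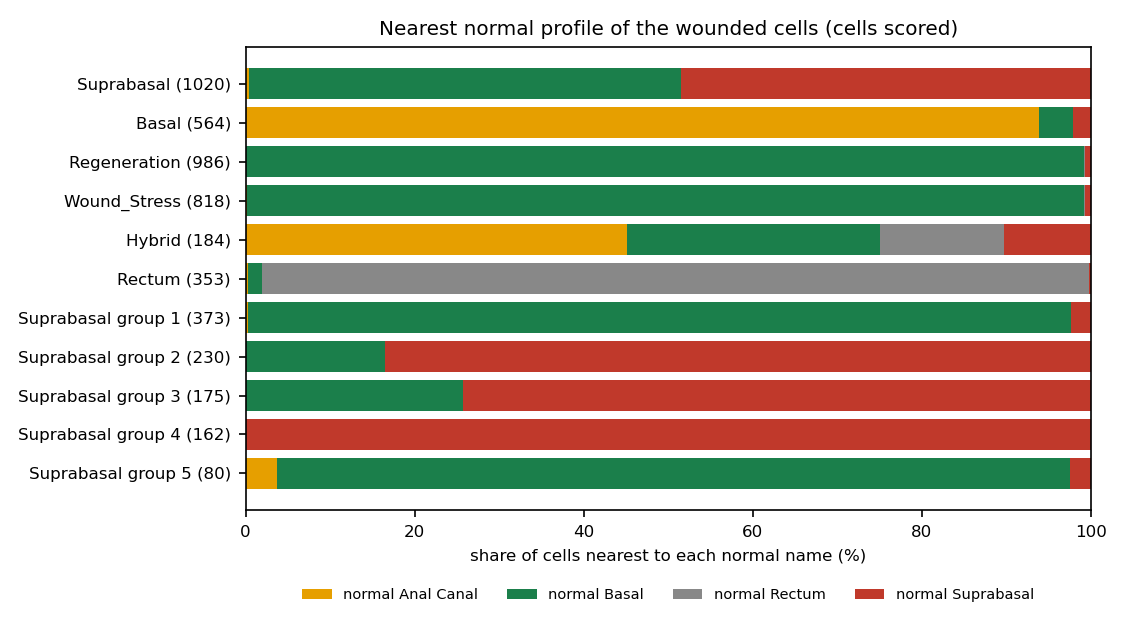
Share of wounded cells (x axis, %) nearest to each of the 4 normal names, for the 6 wounded names and for the 5 groups of the Suprabasal cells, with the number of cells scored in brackets. The Suprabasal cells split between normal Basal (51.1%) and normal Suprabasal (48.5%), and the split follows the groups.

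Compared with the 3115 other named wounded cells, 709 of 12654 genes were at least 2-fold higher in these cells (5.60%) and 1872 at least 2-fold lower (14.8%), and the median log2 ratio was -0.24. When ratios were centred on that median, the numbers were 971 and 1435. The counted genes had at least 50 UMIs over both sides. The genes with the largest ratios after Klk14 (9.89, with 82.6% of its UMIs in a single cell) were Gabrp, encoding a subunit of the GABA receptor (36.2 CPM, log2 ratio 6.999), Cst6, Pglyrp4, encoding a peptidoglycan recognition protein (35.7 CPM, 5.98), the VEGF receptor gene Flt1 (103 CPM, 5.89), Klk7 (39.6 CPM, 5.71), Defb6 (1982 CPM, 5.62), the proton pump subunit gene Atp6v1c2 (112 CPM, 5.402), Ly6g6c (828 CPM, 5.16) and Klk10 (207 CPM, 5.06). Cst6 was detected in 868 of the 1032 cells, Defb6 in 533, Ly6g6c in 403, Atp6v1c2 in 391, Flt1 in 264, Pglyrp4 in 249 and Gabrp in 201, but Klk10 in 78 and Klk7 in 47. Among the 10 lowest were the chemokine gene Ppbp, the envelope gene Sprr2d and hormone genes of enteroendocrine cells (Insl5, Ppy, Pyy, Chga and Sst).

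By function, many kallikreins, duct genes and desmosome genes were higher in this contrast, where 5.60% of all genes were higher and 14.8% lower. The kallikrein and duct lists both hold Cst6, one of the markers of these cells. Of the 13 genes of the kallikrein and inhibitor list, 11 were counted and 11 were at least 2-fold higher, with a median log2 ratio of 4.31. A gene nearly absent from the other names was counted only through these cells, so this number describes where the genes were found and tests nothing. Klk12 and Klk14, for example, were at 0 in Hybrid, Rectum, Regeneration and Wound_Stress cells. Of 9 upper follicle and duct genes 8 were higher (median 3.77). Of 13 desmosome genes, 9 were higher and 0 lower (median 1.34), among them Dsp, which links desmosomes to keratins, with 1118 CPM against 249 to 716 CPM in the other wounded names. Against wounded Basal cells alone 1 of the 13 was higher (8.54%) and 0 lower, with a median of 0.38 and summed levels of 3727 and 3238 CPM. The cornified envelope list was mixed, with 8 of 16 genes higher, such as Krtdap (3416 CPM, log2 ratio 2.41), Sbsn (811 CPM, 2.91) and Ivl (46.2 CPM, 2.505), and 5 lower, such as Sprr2d (0.259 CPM, -8.59). Of 8 differentiation keratins 6 were lower, with Krt13 at 1.90 CPM here against 1443 CPM in wounded Basal cells. Of 17 immediate-early genes 11 were lower and 2 higher than in the other wounded cells together (median -1.14), and that result followed 1 name. Their summed level was 4228 CPM in these cells and 17750 CPM in Regeneration cells, but 3819 in Hybrid, 2997 in Rectum, 1386 in Wound_Stress and 957 in Basal cells. Against wounded Basal cells alone, 15 of 17 were higher and 0 lower, with a median of 2.43. Of 16 genes of cholesterol synthesis 11 were lower and 0 higher (median -1.14), with summed levels of 1101 CPM in these cells, 3571 in Regeneration, 1572 in Wound_Stress, 1363 in Hybrid, 1336 in Rectum and 708 in Basal cells. Markers of the anal and sebaceous gland were lower in the same contrast, with 7 of 10 genes lower and 0 higher (median -2.06). Whether the 2 differences are linked was not tested. Of 20 cell cycle genes, 8 were lower and 0 higher (median -0.91).

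Against the 187 normal Suprabasal cells, 1396 of 9771 genes were at least 2-fold higher (14.3%) and 448 at least 2-fold lower (4.58%), with a median log2 ratio of 0.12. When centred on that median, the numbers were 1128 and 601, and with only groups 2, 3 and 4 (568 cells) they were 704 (8.19%) and 505 (5.87%) of 8601 genes, with a median of -0.03. A large part of these differences was not particular to this name. Of the higher genes, 314 of the 933 counted in Rectum cells were also at least 2-fold higher in wounded over normal Rectum cells, where 9.97% of all genes were, and 447 of 1148 were also higher in wounded Basal over normal Anal Canal cells, where 8.42% were. Of the lower genes, these numbers were 124 of 266 (background 5.01%) and 223 of 387 (6.29%). The genes at the top of the ranking were of that kind. Atp6v0c, at 488 CPM and 0 in normal Suprabasal cells (at least 8.54 on the log2 scale, against a floor of 3 UMIs), had a ratio of 7.37 in Rectum cells and of at least 8.80 in Basal over Anal Canal cells, and Rps12 had 6.10, 5.77 and 5.65. The libraries were made with different releases of Cell Ranger (3.1.0 for normal and 4.0.0 for wounded). Their sets of gene identifiers differed too, with 31054 in the normal and 32285 in the wounded library, of which 30406 were shared. Release, gene set, library and wound cannot be told apart. The Rectum and the Basal over Anal Canal ratios are therefore given below beside many of the lists and genes, though not all.

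In summed CPM, none of the 4 marker genes differed from normal Suprabasal cells by 2-fold. The log2 ratios were -0.71 (-0.72 to -0.71) for Cst6, -0.67 (-0.86 to -0.48) for Nectin4, -0.40 (-0.42 to -0.38) for Krt17 and -0.37 (-0.43 to -0.31) for Krt6a. In groups 2, 3 and 4 alone they were -0.17, -0.20, 0.01 and 0.12, each nearer to 0 or past it. Most cells of these groups were nearest to the normal Suprabasal profile, which includes the marker genes. The normal cells were not restricted in the same way, so values nearer to 0 test nothing. For Cst6 the sum was spread unevenly over the cells: the 163 cells of group 4 stood at 158500 CPM, while the median share of a cell's UMIs was 0.106% in wounded and 3.46% in normal Suprabasal cells.

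Several kallikreins and the inhibitor gene Slpi were at least 2-fold lower in the wounded cells of this name. Kallikrein-related peptidases are secreted serine proteases that cut the desmosome proteins holding the outermost cells together, and Spink5, Slpi and Cst6 encode inhibitors of serine or cysteine proteases. Of the 13 genes, 11 were counted, of which 0 were higher and 7 lower by at least 2-fold (4.58% of all genes were lower), with a median of -1.39. In groups 2, 3 and 4 alone 5 of the 11 were lower (5.87% of all genes), with a median of -0.84. In wounded Basal over normal Anal Canal cells 7 genes of the list were counted, with 1 lower (6.29%), 1 higher (8.42%) and a median of 0.26, and in Rectum cells 3 were counted. The 10 Klk genes of the list lie side by side on chromosome 7, from 43690418 to 43851181 of GRCm38, a stretch of 160764 bases, all on the plus strand.

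Klk13 stood at 86.7 CPM (81.4 to 92.2) in the wounded and 427 CPM (400.4 to 454) in the normal Suprabasal cells, at 26.3 in wounded Basal and 22.4 in normal Anal Canal cells, and at 8.77 CPM or less in the other names. Its log2 ratio over normal Suprabasal cells was -2.30 (-2.43 to -2.17), and -1.75 (-1.88 to -1.62) in groups 2, 3 and 4. Klk8 stood at 56.5 CPM (52.3 to 61.0) in the wounded and 216 CPM (198 to 236) in the normal Suprabasal cells, and at 102 in wounded Basal, 95.4 in normal Basal and 77.4 in Anal Canal cells. Its ratio was -1.94 (-2.11 to -1.77), and -1.67 in groups 2, 3 and 4. Both genes were lower with and without groups 1 and 5, while their ratios in wounded Basal over normal Anal Canal cells were 0.23 and 0.40. Klk10 was at 207 CPM (199 to 216) in the wounded and 501 CPM (473 to 531) in the normal Suprabasal cells, a ratio of -1.27 (-1.38 to -1.17), and was most abundant in group 4 (658 CPM) and group 3 (210 CPM). Few of the wounded cells held these RNAs: Klk13 was detected in 51 cells, with 10.3% of its UMIs in a single cell, Klk10 in 78 cells, with 18.1% in a single cell, and Klk8 in 188. For Klk10 the ratio in groups 2, 3 and 4 was -0.73, and that in Basal over Anal Canal cells -1.13. Klk11 (-2.20), Klk12 (-1.83) and Klk14 (-1.39) were lower too, at 11.0, 8.12 and 29.8 CPM, and Klk7, which cuts corneodesmosin, was at 39.6 against 69.7 CPM (-0.82, -1.08 to -0.55). Most of the wounded Klk14 UMIs came from a single cell. Klk14 is counted among the lower genes of the list, and its ratio was also the median of the list.

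The inhibitors differed among themselves. Slpi was at 1229 CPM (1209 to 1250) in the wounded and 3551 CPM (3474 to 3629) in the normal Suprabasal cells, a log2 ratio of -1.53 (-1.57 to -1.49), and -1.12 in groups 2, 3 and 4. Spink5 was at 653 and 708 CPM, a ratio of -0.12 (-0.19 to -0.04), and 0.43 in groups 2, 3 and 4. Within the wounded cells, group 4 held the most of each, with 3702 CPM of Slpi and 2234 CPM of Spink5.

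The 250 bases before the start sites of Klk13, Klk8 and Klk10 are shown because these 3 kallikreins were above 50 CPM in these cells and at least 2-fold lower than in normal Suprabasal cells. Klk11 and Klk12 had lower ratios than Klk10 but stood under 50 CPM. They come from RefSeq, build GRCm38.p6, plus strand, 5′ to 3′, at chr7:43712317-43712566, chr7:43797327-43797576 and chr7:43780804-43781053. Capitals mark the letters TTAAAA, which were searched on both strands because they are close to the core promoter element known as the TATA box.
Klk13: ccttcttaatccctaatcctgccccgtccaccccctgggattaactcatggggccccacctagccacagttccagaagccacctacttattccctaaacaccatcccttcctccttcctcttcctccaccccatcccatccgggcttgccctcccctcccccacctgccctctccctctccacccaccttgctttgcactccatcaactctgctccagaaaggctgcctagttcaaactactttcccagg
Klk8: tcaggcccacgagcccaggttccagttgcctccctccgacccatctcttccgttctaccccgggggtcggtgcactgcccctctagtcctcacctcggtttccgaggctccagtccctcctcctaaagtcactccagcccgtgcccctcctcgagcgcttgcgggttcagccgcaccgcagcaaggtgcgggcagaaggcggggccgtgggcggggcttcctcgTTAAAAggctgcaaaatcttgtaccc
Klk10: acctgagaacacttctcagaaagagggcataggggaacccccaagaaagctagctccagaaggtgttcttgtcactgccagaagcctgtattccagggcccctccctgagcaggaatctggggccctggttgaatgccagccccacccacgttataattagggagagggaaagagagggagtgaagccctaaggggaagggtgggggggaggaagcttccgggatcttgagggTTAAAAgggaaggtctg
The motif lies from base -26 to -21 before the start site of Klk8 and from -17 to -12 before that of Klk10. It is found in 5 of the 13 promoters that the table gives for 11 genes of the list, and in 17.7% of all 32851 promoters of this length. The matches of Klk11 (from -233) and Slpi (from -195) lie far from the start site. The AP-1 motif TGANTCA (6.75% of promoters) and the Grainyhead motif AACNNGTT (3.64%) were found in 0 of the 13.

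Some of the immediate-early genes, which cells switch on within minutes of growth signals or stress, were higher in the wounded than in the normal Suprabasal cells. Of 17 genes, 8 were at least 2-fold higher (14.3% of all genes) and 0 lower, with a median of 0.89, and with groups 2, 3 and 4 alone 9 were higher (8.19%), with a median of 1.20. The other 9 genes did not pass 2-fold in all cells of the name, among them Fos (0.89) and Junb (0.01). In Rectum cells 6 of 14 were higher (9.97%) and 1 lower (5.01%), with a median of 0.39, and in wounded Basal over normal Anal Canal cells 0 of 15 were higher (8.42%) and 7 lower (6.29%), with a median of -0.89. Atf3, a transcription factor induced by stress (chromosome 1, 191170296 to 191218039, minus strand), reached 286 CPM (276 to 296) in wounded and 37.2 CPM (29.8 to 46.1) in normal Suprabasal cells. Among the other names it was at 1269 CPM in Regeneration, 170 in Hybrid, 58.9 in wounded Rectum, 24.4 in wounded Basal and 14.5 in Wound_Stress cells, and at 576 in normal Basal, 50.9 in Anal Canal and 21.3 in normal Rectum cells. Its log2 ratio over normal Suprabasal cells was 2.94 (2.63 to 3.27), and it was highest in group 3 (760 CPM) and group 4 (391 CPM).

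Fosb (164 against 28.9 CPM, log2 ratio 2.51), Btg2 (346 against 109 CPM, 1.67), Ier3 (327 against 126 CPM, 1.38), Egr1 (224 against 96.4 CPM, 1.22) and Jun (809 against 362 CPM, 1.16) were also at least 2-fold higher, and Fos was at 552 against 298 CPM (0.89, 0.78 to 1.01). Junb, a subunit of AP-1, was at 254 and 252 CPM, a ratio of 0.01 (-0.12 to 0.14), although it ranged from 107 CPM in group 1 to 531 in group 3. All these levels stayed below those of Regeneration cells, where Fos was at 2671 and Jun at 3488 CPM.

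Among the ligands of the EGF receptor, Areg and Hbegf were at least 2-fold higher than in normal Suprabasal cells. Areg, encoding amphiregulin, was at 51.0 CPM (46.9 to 55.3) in wounded and 8.76 CPM (5.35 to 13.5) in normal Suprabasal cells, and at 53.4 CPM in normal Anal Canal and 19.3 CPM in wounded Basal cells. The log2 ratio was 2.54 (1.90 to 3.26), and 3.06 (2.42 to 3.78) in groups 2, 3 and 4. Hbegf, the heparin-binding ligand, was at 74.4 CPM (69.5 to 79.5) and 19.3 CPM (14.01 to 25.9), a ratio of 1.95 (1.51 to 2.42), and 1.84 in Rectum cells. Both were lowest in group 1 (1.83 and 30.4 CPM) and highest in group 4 (127 and 152 CPM). Btc, encoding betacellulin, was at 16.6 against 8.32 CPM (0.99, 0.31 to 1.76). The receptor gene Egfr ran the other way among the groups, at 60.5 CPM in group 1 and 14.1 CPM in group 4, and was at 31.3 against 16.7 CPM over normal (0.91, 0.43 to 1.43). Of the 8 genes of the list that were counted, 2 were at least 2-fold higher (14.3% of all genes) and 0 lower, with a median of 0.43, and in groups 2, 3 and 4 alone 3 of 8 were higher (8.19%), with a median of 0.15.

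**Figure D5:**
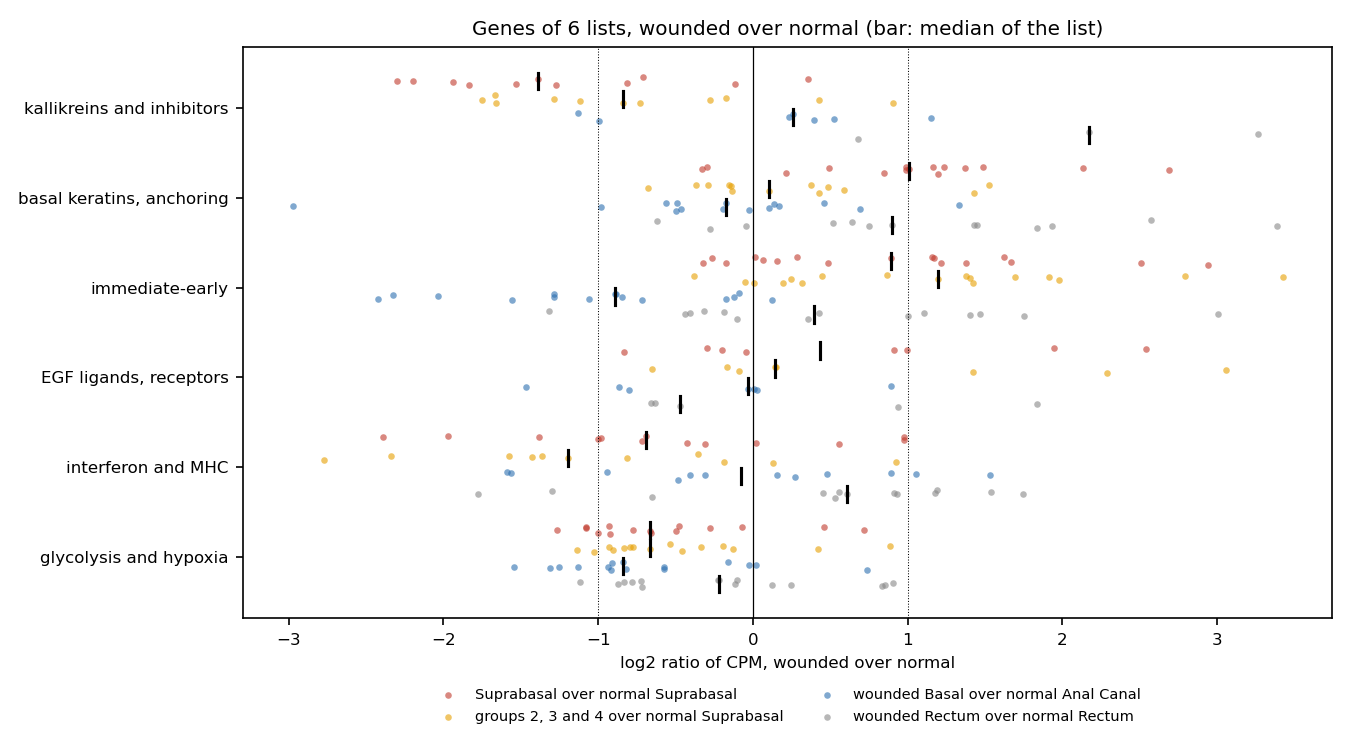
log2 ratio of CPM, wounded over normal (x axis), of each counted gene of 6 lists, in all wounded Suprabasal cells (red), their groups 2, 3 and 4 (orange), wounded Basal over normal Anal Canal (blue) and Rectum cells (grey); black bars are the medians of a list and dotted lines mark 2-fold. Kallikreins and inhibitors have medians of -1.39, -0.84, 0.26 and 2.17 in that order, and immediate-early genes 0.89, 1.20, -0.89 and 0.39.

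Fewer genes of the basal layer were higher than in normal Suprabasal cells once groups 1 and 5 were left out. Of 15 such genes, 8 were at least 2-fold higher (14.3% of all genes) and 0 lower (median 1.01), and with groups 2, 3 and 4 alone 2 of 13 were higher (8.19%) and the median was 0.10. The Krt15 ratio had the opposite sign without those groups, going from 1.16 (1.07 to 1.26) to -0.68 (-0.79 to -0.57), and Col17a1 from 1.37 (1.06 to 1.70) to -0.16 (-0.51 to 0.20). Dst, encoding a plakin of hemidesmosomes, was higher either way, with 119 against 18.4 CPM, a ratio of 2.69 (2.25 to 3.17), and 1.43 in groups 2, 3 and 4, and its ratio in wounded Basal over normal Anal Canal cells was 1.33. In Rectum cells 6 of 13 genes of the basal list were higher (9.97%) and 0 lower, with a median of 0.90.

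Most desmosome genes lay within 2-fold of normal. Of 13 desmosome genes, 2 were at least 2-fold higher (14.3% of all genes), Dsg3, encoding the desmoglein of the lower layers (170 against 52.6 CPM, log2 ratio 1.69, 1.42 to 1.97), and Dsg2 (49.2 against 14.5 CPM, 1.77), and the median was 0.11. In groups 2, 3 and 4 alone 4 of the 13 were higher (8.19%) and 0 lower, with a median of 0.30. The Dsg3 ratio was 1.88 in wounded Basal over normal Anal Canal cells, so it was not particular to this name. Of 13 envelope genes, 2 were higher and 5 lower (4.58% of all genes were lower), with a median of -0.57, and in groups 2, 3 and 4 alone 2 of 12 were higher and 1 lower (5.87%), with a median of -0.07. Examples were Krtdap at 3416 against 8756 CPM (-1.36) and Sbsn at 811 against 728 CPM (0.16). Of 7 differentiation keratins counted, 2 were higher (14.3% of all genes) and 1 lower (4.58%), with a median of -0.39. The lower gene was Krt1, at 98.7 against 448 CPM (-2.18, -2.31 to -2.06).

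Some genes of the interferon and MHC list were lower. Of 13 counted genes of the interferon and MHC list, 0 were higher and 4 lower by at least 2-fold (4.58% of all genes were lower), with a median of -0.69, and in groups 2, 3 and 4 alone 6 of 11 were lower (5.87%), with a median of -1.19. In Rectum cells 4 of 13 were higher (9.97%) and 2 lower (5.01%), with a median of 0.61, and in wounded Basal over normal Anal Canal cells 2 of 12 were higher (8.42%) and 2 lower (6.29%), with a median of -0.08. B2m, the light chain of MHC class I, was at 520 CPM (507 to 533) in wounded and 2722 CPM (2655 to 2791) in normal Suprabasal cells, at 1661 in normal Basal, 351 in normal Rectum and 236.5 in Anal Canal cells, and at 80.1 to 153 CPM in the other wounded names. Its log2 ratio was -2.39 (-2.44 to -2.34), but it was also -1.30 in Rectum and -1.56 in Basal over Anal Canal cells. The heavy chain gene H2-D1 was at 551 against 1440 CPM (-1.38, -1.45 to -1.32), with ratios of -0.65 and -0.94 in those pairs. Of 15 genes of glycolysis, 4 were at least 2-fold lower (4.58% of all genes) and 0 higher (median -0.67), such as Eno1 (299 against 719 CPM, -1.26). The same list had a median of -0.84 in Basal over Anal Canal cells.

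Some genes that differed from normal Suprabasal cells were within 2-fold in the other pairs, as far as they could be counted there. Of the higher genes, 584 were counted and within 2-fold in Basal over Anal Canal cells and either within 2-fold or not counted in Rectum cells, and of the lower genes 137. This rule was chosen after the values were seen. Among the highest were the matrix gene Npnt, which was not counted in Rectum cells (20.2 against 2.63 CPM, log2 ratio 2.94, 1.80 to 4.40), Id1 and Id3, inhibitors of helix-loop-helix factors (187 against 35.9 CPM, 2.38, and 76.7 against 18.4 CPM, 2.06), and Timp3, an inhibitor of metalloproteinases (232 against 49.5 CPM, 2.23, 1.95 to 2.51). For Id1, Id3 and Timp3 the ratios in groups 2, 3 and 4 were 2.69, 2.28 and 1.998. For Npnt the ratio was 0.98 (-0.27 to 2.50), and for Jag2, at 35.6 against 9.64 CPM, it went from 1.88 to -0.73. Among the lowest, beside Klk8 and Slpi, were the peptide-processing enzyme gene Cpe (804 against 2436 CPM, -1.60, -1.65 to -1.55) and the Notch target gene Nrarp (40.8 against 119 CPM, -1.54, -1.76 to -1.32). Hes1, another Notch target, was at 45.3 against 91.6 CPM (-1.02), with -1.10 in Rectum and -1.48 in Basal over Anal Canal cells. Wfdc18, a small secreted protein with a protease inhibitor domain, was at 598 against 159 CPM (1.91, 1.76 to 2.07) and at -1.43 in Basal over Anal Canal cells.

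Groups 1 and 5, 464 cells of which most were nearest to normal Basal, were set beside the 1829 Regeneration and Wound_Stress cells, most of which had the same nearest name. Of 11009 genes, 981 were at least 2-fold higher (8.91%) and 692 lower (6.29%), with a median log2 ratio of 0.14. Krt15 was at 2708 and 1972 CPM in groups 1 and 5 against 747 in Regeneration and 287 in Wound_Stress cells, a ratio of 2.12 (2.08 to 2.16), and Krt17 at 1788 and 2603 against 1004 and 110 CPM (1.56, 1.52 to 1.60). Of 15 basal layer genes, 8 were higher and 0 lower (median 1.05). Of 17 immediate-early genes, 0 were higher and 15 lower (median -2.53), with Atf3 at 19.8 and 98.2 CPM against 1269 and 14.5 CPM (-4.35, -4.60 to -4.12). Regeneration cells carried nearly all of the Atf3 in that pair of names. The summed level of the list was 2121 and 2890 CPM in groups 1 and 5, below the 17750 CPM of Regeneration but above the 1386 CPM of Wound_Stress cells. Of 14 interferon and MHC genes, 8 were higher and 2 lower (median 1.33), led by Psmb8, a subunit of the immunoproteasome (94.2 and 94.97 CPM against 13.4 and 1.47 CPM, 3.385). Of 16 cholesterol synthesis genes, 13 were lower and 1 higher (median -2.28). Markers of other cell types differed too. Of 10 anal and sebaceous gland genes, 9 were lower and 0 higher (median -2.63), and of 4 smooth muscle genes counted, 3 were higher and 0 lower (median 2.16). The part of such cells or of free RNA in these values was not tested. The chemokine and IL-1 family list was mixed, with 3 of 9 counted genes higher and 4 lower (median 0.16). Among the lower genes, the neutrophil chemokine gene Cxcl1 was at 0.733 and 6.47 against 105 and 1.74 CPM (-4.94). The alarmin gene Il33, also lower, was at 30.1 and 18.35 against 134 and 154 CPM (-2.38, -2.69 to -2.09).

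Against the 257 normal Basal cells, groups 1 and 5 held less of the immediate-early genes. Of 8356 genes, 979 were at least 2-fold higher (11.7%) and 516 lower (6.18%). Of 17 immediate-early genes, 16 were lower and 0 higher (median -2.50), with Fos at 242 and 340 CPM in groups 1 and 5 and 2154 CPM in normal Basal cells (-3.01, -3.11 to -2.91), Atf3 at -3.86 and Junb at -3.11. In groups 2, 3 and 4 over normal Suprabasal cells the median of this list was 1.20; the difference between these comparisons was not tested. Krt15, Krt17 and Krt5 lay within 2-fold of normal, with ratios of -0.19 (-0.23 to -0.15) for Krt15, -0.18 (-0.23 to -0.13) for Krt17 and -0.20 for Krt5. Of 4 differentiation keratins counted, 0 were higher and 2 lower (median -0.93). Mki67 was higher, at 35.2 and 996 CPM against 70.2 CPM (1.99, 1.76 to 2.22), and group 1 alone lay below normal Basal.

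The cells were also set beside those of the anal canal, which the wounded cells named Basal most resembled. Over normal Anal Canal cells, 1501 of 10300 genes were at least 2-fold higher (14.6%) and 1716 lower (16.7%), or 1858 and 1301 when mitochondrial genes and the 10 most abundant genes were left out of the totals. Over wounded Basal cells, 908 of 10635 genes were higher (8.54%) and 977 lower (9.19%). Differentiation keratins were lower in both, with 7 of 8 genes each (medians -4.59 and -4.57), and Krt13, a keratin of internal stratified epithelium, was at 1.90 CPM against 812 in Anal Canal and 1443 in wounded Basal cells (-8.74 and -9.57). Upper follicle and duct genes were higher in both, with 8 and 7 of 9 genes, and Krt79 was at 3509 CPM against 49.5 and 104 CPM (6.15 and 5.08). Alox12e, a lipoxygenase of the epidermis, was at 344 CPM against 3.20 and 2.79 CPM (6.75 and 6.95), and at 486 CPM in normal Suprabasal cells. Sox2, a transcription factor of foregut and oral epithelium, stood at 2.85 CPM, against 36.1 in Anal Canal and 61.0 in wounded Basal cells. Of 20 cell cycle genes, 16 were lower than in Anal Canal cells, and of 19 counted 13 were lower than in wounded Basal cells.

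Markers of other cell types were found at the summed levels given here. Of 16 rectum genes none was at 0 in the wounded Suprabasal cells, and their sum was 710 CPM, of which 364 CPM was Car2, against 11680 CPM in wounded Rectum and 1279 CPM in normal Suprabasal cells, where 1121 CPM was Car2. In group 3 the sum was 1192 CPM, with 309 CPM of Car2, and in groups 1, 2, 4 and 5 it was 257, 708, 808 and 467 CPM. Of the 12 rectum genes counted against normal Suprabasal cells 9 were higher (14.3% of all genes) and 1 lower (4.58%), with a median of 2.68, and of 9 in Basal over Anal Canal cells 5 were higher (8.42%) and 1 lower (6.29%), with a median of 1.53. Muc13, a mucin of the gut, was at 15.2 CPM and at 0 in normal Suprabasal cells (at least 3.53), and at 653 CPM in wounded Rectum cells. Sums for other types were 43.7 CPM for 8 fibroblast genes (17.3 CPM of Sparc, none at 0), 4.32 CPM for 7 endothelial genes (Kdr and Emcn at 0), 2.85 CPM for 10 immune genes (Ptprc, Cd3d and Trdc at 0), 0.346 CPM for 5 melanocyte genes (4 at 0) and 4.41 CPM for 7 enteroendocrine genes (3 at 0). The 10 hair follicle genes summed to 252 CPM, of which 230 CPM was Sox9, and the 10 anal and sebaceous gland genes to 493 CPM, led by Mgst1 (151 CPM). Smooth muscle genes summed to 78.0 CPM, led by Acta2 (37.8 CPM), with 149 CPM in group 1 and 192 CPM in group 5 against 14.1 CPM in group 4.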

How the data were processed

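Single cells of the anorectal junction were sequenced as 1 droplet library per group. The deposited matrices hold raw UMI counts per gene and cell barcode. Per the file headers they were made with Cell Ranger 3.1.0 (normal) and 4.0.0 (wounded), on mm10. The submitters' processing notes name Seurat 3.2.2. A second deposited table per library gives a cell's name and natural log values, each ln(1 + x) with x whole; only the names were taken from it. The study had kept cells with 200 to 5000 genes and under 25% mitochondrial UMIs, and had removed gland, hair follicle and fibroblast clusters before naming.

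UMIs were summed per name with Python 3.11.15, pandas 2.3.3, NumPy 2.4.6 and SciPy 1.17.1. Genes with at least 50 UMIs over both groups were counted, over the 30406 gene identifiers found in both libraries where libraries were compared. Counts of 0 were set to 3 for a bound. Groups within the name came from Leiden clustering (scanpy 1.11.5, igraph 0.11.9). Figures were drawn with matplotlib 3.10.9. Scrublet called 1 wounded and 2 normal doublets and so did not work as a caller, and the cells with the highest scores were left out as an alternative. The ratio was checked on simulated counts of 9771 genes for wounded over normal Suprabasal cells, where the direction of 200 of 200 changed genes was recovered. For 189 of them the interval left out 0. This checks the computation only and says nothing on the spread between libraries. Genes named were the 10 highest and 10 lowest of each comparison with at least 200 UMIs in the higher group, the leading genes of each group of cells (at least 100 UMIs), and the genes of the lists. The members and lists were chosen with earlier results of these data known. No test across samples was possible with 1 library per group.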

Additional observations from a re-analysis of the deposited data

How the results depend on the processing

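No paired analysis was possible because each group had 1 library and no result came from a test. Most values kept their direction: of the named genes, 9042 values under the alternatives moved by less than the counting interval, 2798 moved by more and 17 had the opposite sign, and of the list medians 681, 186 and 1. With a minimum of 200 UMIs, 1118 genes were lower than in the other wounded cells, 637 higher and 226 lower than in normal Suprabasal, 833 and 969 against normal Anal Canal, and 512 and 437 against wounded Basal cells. At 3-fold the numbers were 351 and 1019, 539 and 107, 810 and 717, and 519 and 422 in that order of comparisons. With groups 2, 3 and 4 alone, an alternative added after the data were seen, 704 genes were higher than in normal Suprabasal cells. In that setting the median of the same 15 basal layer genes went from 1.01 to -0.14, and the log2 ratios were -0.68 for Krt15, -0.16 for Col17a1, -0.51 for Itga3, -0.29 for Lamb3, -0.73 for Jag2, -1.26 for Mki67, -0.57 for Ctnnal1, -2.12 for Aspm, -4.04 for Knl1 and, over normal Anal Canal cells, -0.78 for Npnt. With the mean of the per-cell CPM, the ratios over normal Suprabasal cells were -1.05 for Krt4, -0.064 for Elf3 and -0.21 for Cdsn, and over Anal Canal cells -0.36 for Il18. With cells under 10% mitochondrial UMIs, Saa1 was at -0.52 and Elf3 at -0.38 over normal Suprabasal cells, and Lyve1 at 4.18 over the other wounded cells. The cause of these reversals was not tested. At 4000 UMIs and without sampling, the shares of cells with a UMI were 96.25% and 96.12% for Krt17, 24.59% and 40.89% for Nectin4, 55.46% and 57.66% for Krt6a, and 76.96% and 84.11% for Cst6. Cells nearest to normal Suprabasal were 44.9% with the list genes alone, 44.6% with Pearson's correlation and 54.0% at 4000 UMIs, those nearest to Basal 54.8% with Pearson's correlation and 45.6% at 4000 UMIs, and those nearest to Anal Canal 1.47% with the list genes. Clustering gave 3 groups at a resolution of 0.2, 10 at 0.8, 6 with the list genes kept and 6 with 20 principal components. The adjusted Rand index with the main groups, which is 1 for equal groupings, was 0.498, 0.465, 0.632 and 0.614 in that order. Which cells share a group thus changed with the setting. Depth limits the genes under 50 UMIs and the Rectum pair, which has 63 normal cells.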
